A study of Homo sapiens with 4 samples.

Results

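Integrins are the receptors with which cells hold on to the extracellular matrix. The genes described here are 10 integrin subunits that lie outside the hemidesmosome, ITGA1, ITGA2, ITGA3, ITGA5, ITGAV, ITGB1, ITGB3, ITGB5, ITGB6 and ITGB8, chosen by gene symbol from a fixed list. They are 10 of the 20046 genes with a named probe on the array and are read by 18 probes. They were measured in MCFDCIS cells, a breast cancer line of the basal subtype, transfected for 72 hours with siRNA against Slug or with a control siRNA. Each transfection has 2 biological replicates, and all 4 RNA samples were hybridised to 1 Illumina bead array chip. All arrays come from the same line and culture conditions. The labels do not say whether the siRNA was a single duplex or a pool, nor whether replicates came from separate days or stocks. The tests therefore take their error from the scatter of these 4 arrays, which may be partly technical.

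Every integrin is a pair of 1 alpha and 1 beta subunit, and the pair decides the ligand. The beta-1 subunit (ITGB1) pairs with alpha-1 (ITGA1) and alpha-2 (ITGA2) to bind collagens, with alpha-3 (ITGA3) to bind laminins and with alpha-5 (ITGA5) to bind fibronectin. The alpha-v subunit (ITGAV) pairs with beta-1, beta-3, beta-5, beta-6 and beta-8 (ITGB3, ITGB5, ITGB6 and ITGB8) to bind ligands with the tripeptide RGD, such as vitronectin, fibronectin and the latent form of TGF-beta. In stratified and mammary epithelium, alpha-2-beta-1 and alpha-3-beta-1 sit on basal cells, while alpha-5-beta-1 and alpha-v-beta-6 are known for rising in migrating or wounded epithelium. Slug, the product of SNAI2, is a zinc finger repressor that binds the E-box CAGGTG.

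To place this E-box on the subunits, their promoter windows (250 bases before to 50 after a start, RefSeq, GRCh38.p14) were searched for CAGGTG on both strands and for the general E-box CANNTG, which includes it. The table held 12 windows for 8 of the 10 subunits. It gave none under the symbols ITGA3 and ITGB3. CAGGTG occurred in 2 of the 12 windows (16.7%), 1 of ITGB5 and 1 of ITGB6, against 20.6% of all 35114 windows of this length. CANNTG occurred in 6 of the 12 (50%), against 68.7% of all windows. A match describes the letters only. The windows printed are the ITGA5 window, 1 ITGAV window and the 2 windows that hold CAGGTG. ITGA5 and ITGAV are the subunits with the lowest and the highest difference after Slug siRNA. All are written 5′ to 3′ on the gene's strand with each CANNTG match in capitals.
ITGA5 (chr12:54419217-54419516, minus strand): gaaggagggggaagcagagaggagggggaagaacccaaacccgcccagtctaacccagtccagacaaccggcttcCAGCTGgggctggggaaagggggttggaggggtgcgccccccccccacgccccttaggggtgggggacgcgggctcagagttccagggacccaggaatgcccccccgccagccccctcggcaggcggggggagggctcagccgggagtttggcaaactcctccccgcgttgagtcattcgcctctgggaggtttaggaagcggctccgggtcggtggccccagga
ITGAV (chr2:186589806-186590105, plus strand): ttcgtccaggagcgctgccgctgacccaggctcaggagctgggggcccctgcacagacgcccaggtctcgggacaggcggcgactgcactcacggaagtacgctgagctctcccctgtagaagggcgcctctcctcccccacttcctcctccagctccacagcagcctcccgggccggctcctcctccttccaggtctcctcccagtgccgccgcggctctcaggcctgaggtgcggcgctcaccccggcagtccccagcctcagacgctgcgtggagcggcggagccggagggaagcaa
ITGB5 (chr3:124887316-124887615, minus strand): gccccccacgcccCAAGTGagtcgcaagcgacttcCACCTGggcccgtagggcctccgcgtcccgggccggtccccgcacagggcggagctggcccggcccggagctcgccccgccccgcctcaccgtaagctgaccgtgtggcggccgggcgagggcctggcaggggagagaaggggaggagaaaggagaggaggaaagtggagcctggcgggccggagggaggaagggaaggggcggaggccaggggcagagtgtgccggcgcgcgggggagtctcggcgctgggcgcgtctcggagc
ITGB6 (chr2:160200223-160200522, minus strand): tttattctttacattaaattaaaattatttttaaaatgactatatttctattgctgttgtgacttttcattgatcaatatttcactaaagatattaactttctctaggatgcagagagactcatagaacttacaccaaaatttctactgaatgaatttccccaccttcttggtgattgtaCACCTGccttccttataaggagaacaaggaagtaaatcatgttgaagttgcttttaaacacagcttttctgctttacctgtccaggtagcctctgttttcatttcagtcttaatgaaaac
The ITGA5 window holds 1 general E-box, CAGCTG, and no CAGGTG. The ITGAV window shown holds no E-box of either kind. Another ITGAV window, not printed, holds 1 general E-box, CAAATG, and no CAGGTG. In ITGB5 the CAGGTG match lies at -215 and in ITGB6 at -70 from the start, both on the opposite strand, where the printed strand reads CACCTG. For comparison, 1 of the 2 windows of the hemidesmosome subunit ITGA6 holds 2 CAGGTG matches, at -136 and -46.

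The arrays were alike in depth: 39.8% to 40.8% of probes had a detection p under 0.05 and the median probe rested on 20 or 21 beads. The siRNA target did not itself pass the test. SNAI2 read a log2 intensity of 8.57 and 8.51 with Slug siRNA, against 8.95 and 9.01 with control siRNA, a log2 difference of -0.44 (SE 0.16, limma adjusted p = 0.315) without overlap, and a second SNAI2 probe gave -0.37. All 9 measured genes of the epithelial and basal identity list were above background on all 4 arrays, among them CDH1, EPCAM, KRT5 and KRT14, and 8 of the 9 had both Slug siRNA arrays above both control arrays, against 23.6% of all genes. The summed normalized signal of that list, background taken off, was 29825 and 32030 units with Slug siRNA, against 21183 and 22234 with control siRNA, and its part in the integrin values was not tested. KRT8, a simple epithelial keratin, stood highest in it (log2 difference 0.99, adjusted p = 0.0919). CLDN1, a tight junction claudin (0.70, adjusted p = 0.154), and KRT7 (0.54, adjusted p = 0.283) followed. The list median was 0.43, with 8 genes above 0 and 1 below it, at -0.30. Of the markers of other cells, PTPRC, CD3E and ITGAM (leukocytes), CDH5 and VWF (endothelium) and DCN, LUM and PDGFRB (fibroblasts) were above background on 0 of 4 arrays. FAP (1.05, adjusted p = 0.0914), PECAM1 (-0.78, adjusted p = 0.280), CD14, CD68 and ITGB2 were detected on all 4. The fibroblast marker COL1A1 and the endothelial marker KDR were detected on some arrays but not on all. The summed signal of the fibroblast list was 153 and 134 units with Slug siRNA, against 96.5 and 78.5 with control siRNA. That of the endothelial list was 378 and 250 with Slug siRNA, against 582 and 426 with control siRNA. That of the leukocyte and platelet list was 1900 and 1299 with Slug siRNA, against 1247 and 1152 with control siRNA. The part of these 3 lists in the integrin values was not tested.

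The comparison asks how lowering Slug changes the integrin repertoire of these cells. Of the 10 subunits, 9 had a probe above background on at least 2 arrays and were tested, and ITGB3 did not. None of the 9 passed limma's adjusted threshold of 0.05. Of all 11200 genes tested 13 passed, or 0.116%, with 0.0357% higher and 0.0804% lower with Slug siRNA. At an unadjusted p under 0.05 there was 1, ITGA5, against 13% of all genes. The 9 log2 differences ran from -0.68 to 0.38 with a median of 0.08, against a median of 0.01 over all genes, 5 of them above 0 and 4 below. In 5 of the 9 the groups did not overlap, 3 higher and 2 lower with Slug siRNA. That share of 5 in 9 stands beside 45.1% of all genes (23.6% higher and 21.5% lower). No pattern particular to the subunits is read from these counts. Their levels are signals of different probes, so levels are compared between groups for a probe and never between subunits.

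**Figure D1:**
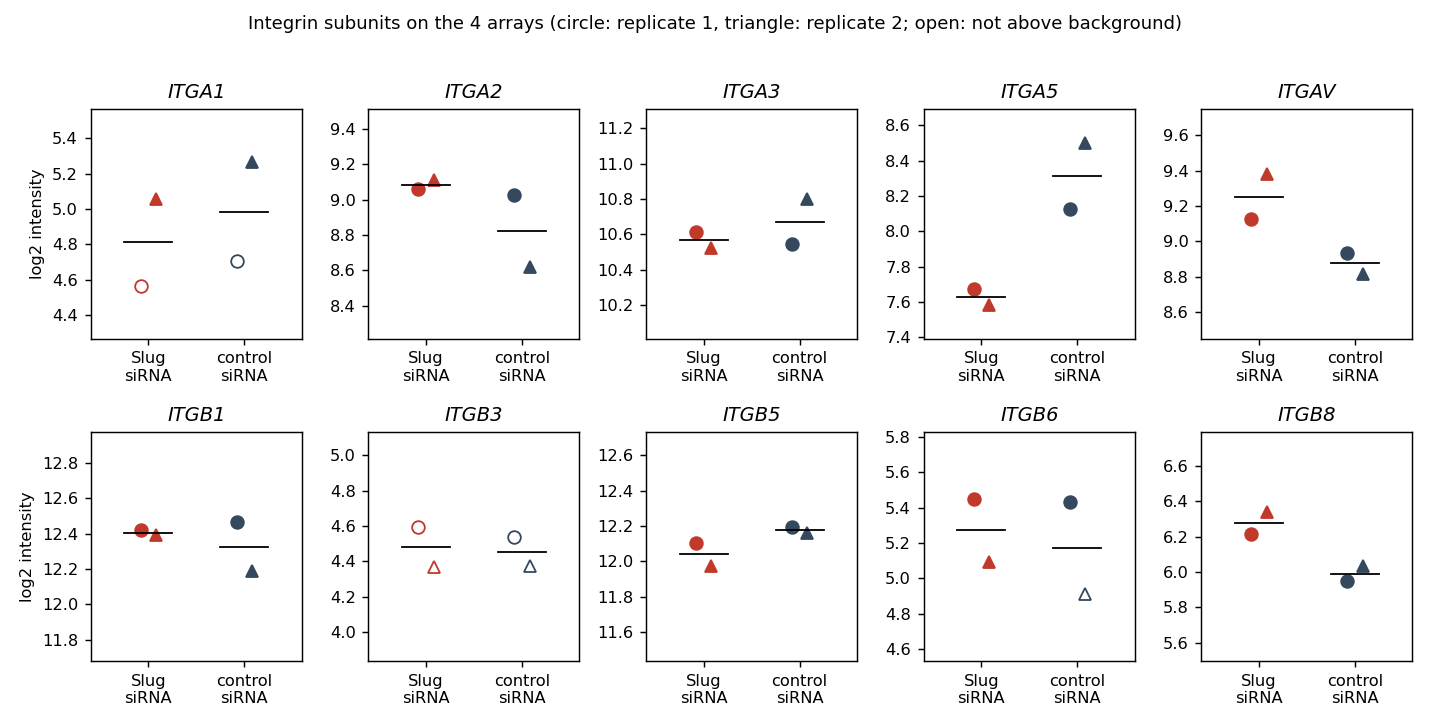
Normalized log2 intensity (vertical axis) of the brightest probe of each of the 10 integrin subunits on the 2 Slug siRNA arrays (left) and the 2 control siRNA arrays (right). Bars are group means, open symbols mark arrays where the probe was not above background, and every panel spans the same range. The groups are apart for ITGA5, ITGAV, ITGB8, ITGB5 and, narrowly, ITGA2, and ITGB3 has open symbols only.

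The fibronectin receptor subunit alpha-5 had the largest difference of the set. ITGA5 read 7.68 and 7.59 with Slug siRNA, against 8.13 and 8.50 with control siRNA, all on the normalized log2 scale. Both Slug siRNA arrays lay below both control arrays, and the 2 control arrays stood further apart than the 2 Slug siRNA arrays. The means were 7.63 ± 0.06 with Slug siRNA and 8.31 ± 0.26 with control siRNA (SD, n = 2 each), a log2 difference of -0.68 (SE 0.19, 95% interval -1.12 to -0.24), which puts control siRNA 1.61-fold over Slug siRNA. The unadjusted limma p was 0.00776 and the adjusted p 0.213, so the difference did not pass the threshold. Before normalization the single ITGA5 probe gave 307 and 296 intensity units with Slug siRNA, against 369 and 449 with control siRNA, from 20 to 33 beads an array, whose standard error was 1.70% to 3.23% of the signal. By absolute log2 difference ITGA5 ranked 483 of 11200 genes. Without control siRNA replicate 2 the log2 difference was -0.50, and without background correction it was -0.49. The 3 genes closest to ITGA5 in their centred values over the 4 arrays were SPMAP1, the tubulin ligase-like gene TTLL12 and FDPS, which makes farnesyl diphosphate. Their root mean square distances were 0.030, 0.039 and 0.049 log2 units and their log2 differences -0.63, -0.72 and -0.70.

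The ligand gene of alpha-5-beta-1 was not detected. All 3 probes of FN1, the fibronectin gene, were not above background on any array, with 103 to 123 intensity units with Slug siRNA, against 105 to 117 with control siRNA (lowest detection p 0.129). FN1, VTN and TGFB1 are named because they encode the main ligands of these receptors, chosen after their values were seen.

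The common partner beta-1 did not separate the groups. ITGB1 read 12.42 and 12.39 with Slug siRNA, against 12.46 and 12.19 with control siRNA, so that both Slug siRNA values lay inside the control range. The log2 difference was 0.08 (SE 0.17, 95% interval -0.33 to 0.48, adjusted p = 0.912). A second bright ITGB1 probe gave 0.05 (adjusted p = 0.955). A dim probe read 5.52 and 4.73 with Slug siRNA, against 5.70 and 5.62 with control siRNA, lower without overlap, a log2 difference of -0.54 (adjusted p = 0.464). It was above background on 3 of 4 arrays and not on Slug siRNA replicate 2, and a further ITGB1 probe was above background on none. The dim probe thus had the opposite sign to the bright pair, and the mean over the kept probes was -0.14 in place of 0.08.

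The collagen receptor subunits of the set gave small differences of opposite sign. ITGA2, the alpha subunit of the main epithelial collagen receptor, read 9.06 and 9.11 with Slug siRNA, against 9.03 and 8.62 with control siRNA. The groups were apart by only 0.03 between Slug siRNA replicate 1 and control siRNA replicate 1, and the log2 difference was 0.26 (95% interval -0.19 to 0.71, adjusted p = 0.642). It was 0.06 without control siRNA replicate 2 and 0.47 without control siRNA replicate 1. ITGA1, which prefers basement membrane collagen, was near the detection limit and above background only on replicate 2 of each group. It read 4.57 and 5.06 with Slug siRNA, against 4.70 and 5.27 with control siRNA, and the groups overlapped (log2 difference -0.17, adjusted p = 0.854). The laminin-binding subunit ITGA3 read 10.61 and 10.52 with Slug siRNA, against 10.55 and 10.80 with control siRNA, again overlapping. Its log2 difference was -0.10 (95% interval -0.51 to 0.30, adjusted p = 0.875), and its second probe was above background on 1 of 4 arrays.

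Alpha-v and its rarer partner beta-8 had the highest log2 differences of the set, neither past the threshold. ITGAV read 9.12 and 9.38 with Slug siRNA, against 8.93 and 8.82 with control siRNA. Both Slug siRNA arrays lay above both control arrays, by 0.38 on average (SE 0.17, 95% interval -0.03 to 0.79), a 1.30-fold higher signal at an unadjusted limma p of 0.0649 (adjusted p = 0.431). Without Slug siRNA replicate 2 the log2 difference was 0.25. ITGB8, whose alpha-v dimer holds and activates latent TGF-beta, read 6.22 and 6.34 with Slug siRNA, against 5.95 and 6.03 with control siRNA, without overlap. Its log2 difference was 0.29 (95% interval -0.09 to 0.67, adjusted p = 0.529), which without background correction was 0.12.

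Of the other alpha-v partners, 1 lay below 0, 1 above it and 1 was not detected, and no difference between these partners was tested. The log2 value of ITGAV minus that of ITGA5, chosen after the values were seen, was 1.06 higher with Slug siRNA. Its exact permutation p was 0.333, the smallest this number of arrays can give, so that test cannot decide and nothing is concluded from it. ITGB5, the vitronectin receptor partner, read 12.11 and 11.97 with Slug siRNA, against 12.20 and 12.16 with control siRNA, lower without overlap by 0.14 (log2 difference -0.14, 95% interval -0.52 to 0.24, adjusted p = 0.800). Its other 2 kept probes gave -0.17 and -0.27, so the 3 had the same sign, and 2 further probes were above background on none of the arrays. ITGB6, the epithelial partner that binds latent TGF-beta, was dim. It read 5.45 and 5.09 with Slug siRNA, against 5.43 and 4.91 with control siRNA, with replicate 1 the higher in both groups, and was not above background on control siRNA replicate 2. Its log2 difference was 0.10 (95% interval -0.44 to 0.64, adjusted p = 0.916). ITGB3, best known from platelets, endothelium and invasive tumour cells, gave 117 and 111 intensity units with Slug siRNA, against 113 and 109 with control siRNA, none above background.

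**Figure D2:**
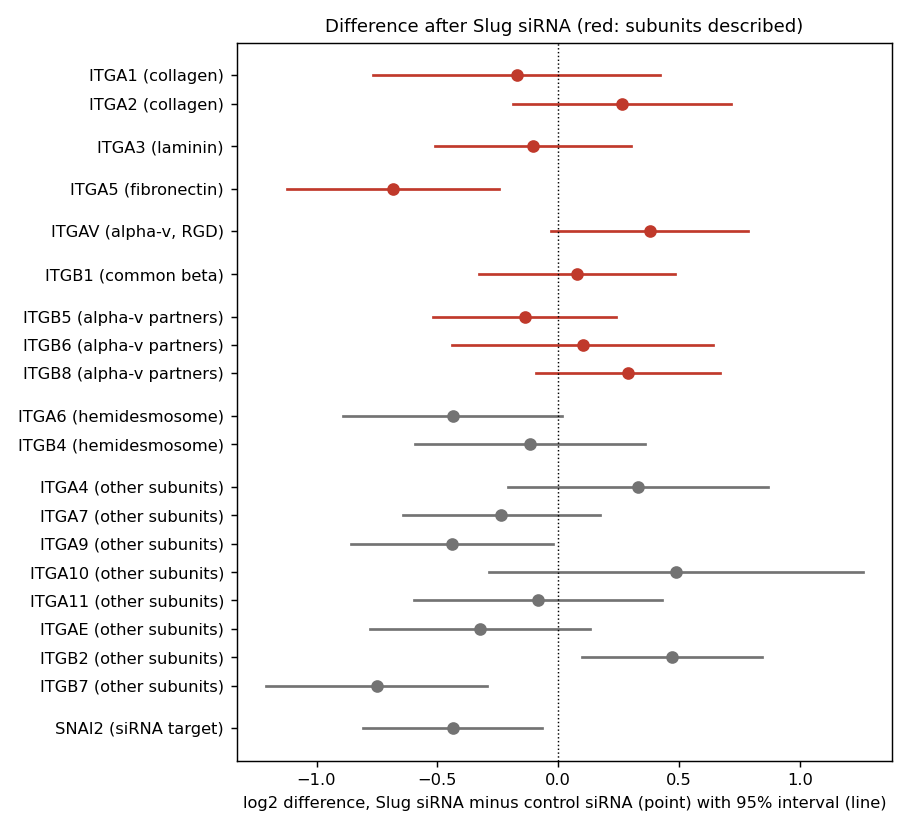
Log2 difference between Slug siRNA and control siRNA (horizontal axis) for each measured integrin subunit and SNAI2, with limma's 95% interval. ITGA5 sits at -0.68 and ITGAV at 0.38, and among the subunits in red the interval leaves out 0 for ITGA5 alone.

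The laminin receptor of the hemidesmosome gave the nearest comparison. ITGA6 read 8.55 and 8.39 with Slug siRNA, against 9.10 and 8.71 with control siRNA, lower without overlap (log2 difference -0.44, adjusted p = 0.412), and another ITGA6 probe gave -0.59. Without control siRNA replicate 1 the difference of the first was -0.24. Its partner ITGB4 read 11.88 and 11.47 with Slug siRNA, against 11.92 and 11.66 with control siRNA, and overlapped (log2 difference -0.12, adjusted p = 0.882). Of 14 further subunits, 8 were tested, and 0 passed limma's adjusted threshold (0.116% of all genes did). An unadjusted p under 0.05 was found for 3, ITGB7, ITGB2 and ITGA9, against 13% of all genes. The median of the 8 was -0.16, with 3 above 0 and 5 below. ITGB7, a leukocyte beta subunit that pairs with alpha-4 and alpha-E, had the lowest value, with 4.69 and 5.04 with Slug siRNA, against 5.75 and 5.50 with control siRNA (log2 difference -0.75, adjusted p = 0.190), and was not above background on Slug siRNA replicate 1. ITGAE, the alpha-E subunit that binds E-cadherin, read 7.84 and 8.27 with Slug siRNA, against 8.38 on both control arrays (log2 difference -0.32, adjusted p = 0.558). ITGA10 had the highest value, with 8.06 and 7.27 with Slug siRNA, against 7.55 and 6.81 with control siRNA. Its groups overlapped (log2 difference 0.49, adjusted p = 0.608), as did those of ITGA11 (-0.09, adjusted p = 0.929). ITGB2, the beta-2 subunit of leukocyte integrins, read 8.07 and 8.18 with Slug siRNA, against 7.65 on both control arrays. Its log2 difference was 0.47 (adjusted p = 0.289), and its second probe gave 0.37. ITGA9, an alpha subunit that binds tenascin-C, was above background on both control arrays and on neither Slug siRNA array. It thus passed the filter through the control siRNA arrays alone, as did ITGA7 (log2 difference -0.24, adjusted p = 0.646). No support is therefore drawn from the tests of ITGA9 and ITGA7, though both are in the counts above. The log2 difference of ITGA9 was -0.44 (adjusted p = 0.370), and -0.13 without background correction. The beta-2 partners ITGAL, ITGAM, ITGAX and ITGAD were above background on none of the arrays.

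Among the genes that encode the ligands, 0 passed limma's adjusted threshold. At an unadjusted p under 0.05 there were 2 of 8 collagen genes and 1 of 7 laminin chains, against 13% of all genes. Of the RGD proteins and latent TGF-beta genes there were 2 of 11. Of the collagen genes 5 lay below 0 (median -0.22), and those with the largest differences were basement membrane type IV chains. COL4A6 read 6.09 and 5.82 with Slug siRNA, against 7.07 and 6.57 with control siRNA (log2 difference -0.87, adjusted p = 0.179). Its 2 other probes were above background on none of the arrays. COL4A5 had -0.54 (adjusted p = 0.423) and its other probe -0.26, and COL4A1 had -0.42 (adjusted p = 0.395). Laminin chains were divided, with 3 of 7 above 0 (median -0.20). LAMA4, a chain of vascular and mesenchymal laminins, had -0.52 (adjusted p = 0.357). LAMB3, a chain of the main epithelial laminin, had 0.36 (adjusted p = 0.494), while another LAMB3 probe gave 0.06. Of the RGD proteins and latent TGF-beta genes, 8 of 11 lay above 0 (median 0.25), as did 5784 of all 11200 genes. With no filter on dim probes the median was 0.03 over 22 genes. TGFB2, whose latent form unlike that of TGFB1 and TGFB3 lacks the RGD motif, read 5.49 and 5.85 with Slug siRNA, against 4.57 and 5.01 with control siRNA (log2 difference 0.88, adjusted p = 0.174), and was above background on 3 of 4 arrays. Its log2 difference was 0.27 without background correction and 0.46 with an offset of 50. CCN2, a matricellular ligand, stood at 0.45 (adjusted p = 0.418), and its other probe gave 0.28 with overlapping groups. FBN2, a fibrillin, stood at -0.42 (adjusted p = 0.349). VTN and TGFB1 were above background on none of the 4 arrays.

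The adhesion machinery inside the cell was described by a list of activators and adaptors and a list of kinases and scaffolds. Of 25 tested activators and adaptors, 10 were above 0 and 15 below (median -0.06), 0 passed in limma and 3 had an unadjusted p under 0.05, where 13% of all genes did. SHARPIN, an inhibitor of integrin activation, read 5.96 and 5.83 with Slug siRNA, against 6.71 and 6.58 with control siRNA (log2 difference -0.75, adjusted p = 0.134). ACTN4, an actin crosslinker of adhesions, stood at -0.66 (adjusted p = 0.180) and RSU1, a partner of the ILK complex, at 0.45 (adjusted p = 0.373). Of 19 adhesion kinases and scaffolds 13 lay below 0 (median -0.14), as did 5416 of all 11200 genes, and none passed. The median was nearer 0 in some alternatives: -0.06 without background correction, -0.09 with median scaling and -0.05 with no filter on dim probes. The 5 with an unadjusted limma p under 0.05, against 13% of all genes, were all lower. At that cut 769 of all 11200 genes were lower. The groups did not overlap for 13 of the 19, against 45.1% of all genes. Of these, 9 were lower and 4 higher with Slug siRNA, against 21.5% and 23.6% of all genes. CAV1, the caveolar coat protein, read 11.86 and 12.32 with Slug siRNA, against 12.85 and 13.08 with control siRNA (log2 difference -0.87, adjusted p = 0.162), and its second probe gave -1.30. The Src family kinase YES1 stood at -0.54 (adjusted p = 0.240) and the scaffold NEDD9 at -0.51 (adjusted p = 0.384), with -0.21 from another probe.

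Of 18 membrane partners of integrins 8 lay above 0 and 10 below (median -0.02), 0 passed in limma and 3 had an unadjusted p under 0.05, against 13% of all genes. SDC1, a heparan sulfate syndecan that cooperates with alpha-v integrins, read 11.90 and 11.64 with Slug siRNA, against 12.64 and 12.52 with control siRNA (log2 difference -0.81, adjusted p = 0.128). A dim second probe of SDC1 gave 0.28, and the mean over its kept probes was -0.27. EPHA2, a receptor tyrosine kinase, read 8.15 and 8.07 with Slug siRNA, against 7.38 and 7.50 with control siRNA (log2 difference 0.67, adjusted p = 0.162). PLAUR, the urokinase receptor that associates with beta-1 and alpha-v integrins, stood at 0.63 (adjusted p = 0.186), and its other 2 probes gave 0.49 and 0.42.

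**Figure D3:**
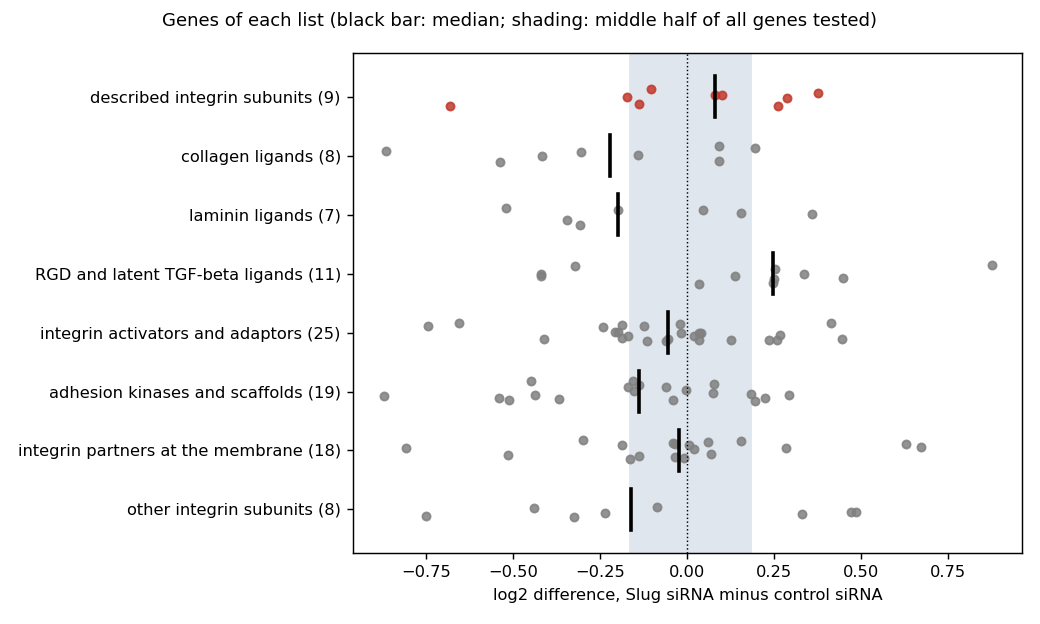
Log2 difference between Slug siRNA and control siRNA (horizontal axis) for each tested gene of 8 lists, the number tested in brackets. Black bars are list medians and the shading runs from -0.17 to 0.18, the middle of the distribution of all genes. List medians lie between -0.22 and 0.25.

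Stability differed between subunits. Over 12 alternatives (11 for ITGA1 and ITGB6) ITGA5 stayed between -0.87 and -0.49 and ITGAV between 0.25 and 0.51, and ITGA2, ITGB5 and ITGB8 also kept their sign. ITGA1, ITGA3, ITGB1 and ITGB6 changed sign in at least 1 alternative. None of the 9 passed the adjusted threshold of limma in any alternative, and the lowest adjusted p was 0.0807, for ITGA5.

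**Figure D4:**
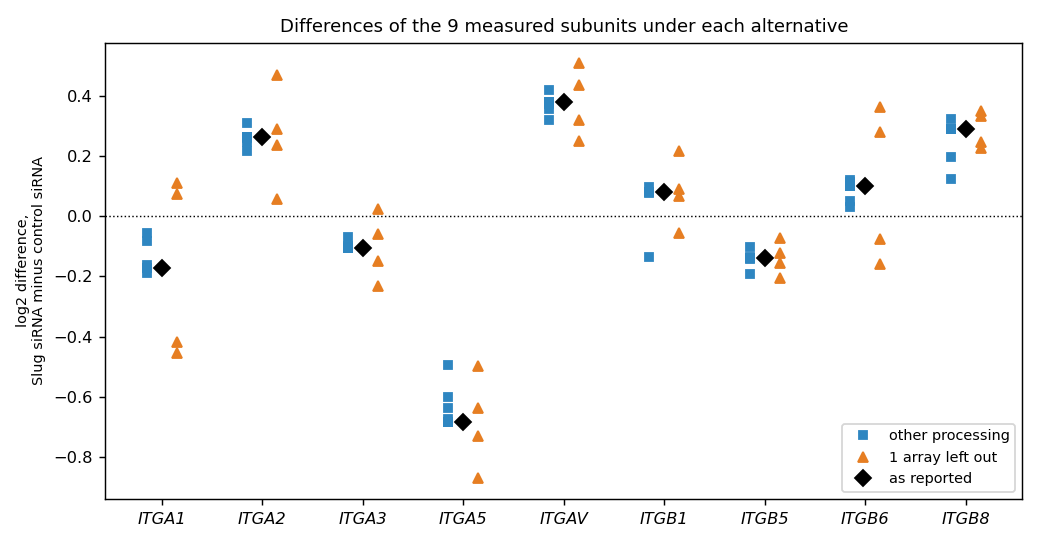
Log2 difference between Slug siRNA and control siRNA (vertical axis) of the 9 tested subunits as reported, under other processing and with 1 array left out. ITGA5 runs from -0.87 to -0.49 and ITGAV from 0.25 to 0.51, while the triangles of ITGA1, ITGB6, ITGB1 and ITGA3 lie on both sides of 0.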

How the data were processed

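The authors deposited, per the file headers, the mean bead intensity of 47323 probes on a linear scale, not normalized, with a detection p-value, a standard error over beads and a bead number for each of 4 arrays. The scanner software is not given in the sources used here. A table of intensities the authors had normalized was deposited too and served as an alternative. The bead table held 8 further columns of per-sample values, which were not used. Per the labels, total RNA was amplified and biotin-labelled.

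In R 4.3.3 with limma 3.58.1, background was removed by limma's nec function from the detection p-values (normal-exponential model, offset 16), and values were quantile normalized and put on a log2 scale. Probes with a detection p under 0.05 on at least 2 arrays were kept (19446). Symbols came from the platform annotation (30113 probes had 1, 8 several and 17202 none), and 30074 matched RefSeq on GRCh38.p14. Each of 11200 genes took its kept probe with the highest mean. Groups were compared with lmFit and eBayes, two-sided, with group as the only term (2 residual and 5.11 prior degrees of freedom) and Benjamini-Hochberg adjustment over all kept probes. The procedure was tested on simulated data drawn from limma's own fitted error model, so that test cannot show how departures from the model act. Fold changes of dim probes are understated, because the offset stays in the signal. The number of arrays limits the precision.

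Members, lists, tests and the alternatives were chosen with earlier results of these data known. The naming rule took all members, SNAI2, ITGA6 and ITGB4. From each other list it took up to 4 genes past the threshold or, where none passed, the 3 with the largest difference among genes whose groups did not overlap and whose higher group had both arrays at a detection p under 0.01. It also took the 3 genes nearest in pattern to the member with the largest difference. ITGA7, ITGA9, ITGA10 and ITGA11 were named outside this rule. Alternatives changed the background correction, offset, normalization, filter, source table, model, probe choice and arrays. Figures were drawn with matplotlib 3.10.9.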

Additional observations from a re-analysis of the deposited data

How the results depend on the processing

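No integrin subunit described here passed the adjusted threshold under any of the 12 alternatives. ITGA5 had an unadjusted limma p under 0.05 in 11 of them, the exception being the one without control siRNA replicate 2. ITGAV had one in 5 (no background correction, offset 50, no filter, stricter filter, replicate block) and ITGB8 in 1 (no filter). The number of genes past the threshold, 13, was 158 without background correction, 217 with an offset of 50, 34 with median scaling, 124 with a detection p under 0.01 on all 4 arrays, 3 with the authors' normalized values and 0 of 20046 with no filter on dim probes, where 2386 had an unadjusted limma p under 0.05. With the mean over the probes of a gene it was 11. Leaving out 1 array gave 3 to 20 genes: 6 and 17 when Slug siRNA replicate 1 or 2 was dropped, and 3 and 20 when control siRNA replicate 1 or 2 was, on the same kept probes. The cause of these shifts was not tested.

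With the replicate number as a block it was 356, and again 0 of the integrin subunits. COL4A6, TGFB2, SHARPIN and PECAM1 passed with the replicate block and under no other alternative (adjusted p from 0.0304 to 0.0437). CAV1, SDC1, KRT8 and FAP passed with it and under at least 1 other. CLDN1 passed without background correction and with an offset of 50, and ACTN4 and PLAUR passed without background correction. The replicate numbers stand for the letters A and B, which the sample titles of both groups carry. No label says that equal letters share a day or batch. Over all kept probes, the same-numbered arrays' deviations from their group means correlated at 0.36, with only 2 pairs. The pairing was left out of the main test because no label states it. With the block, limma's adjusted p of ITGA5 was 0.0807, against 0.213 in the main test. The main test may therefore overstate the error if the replicates were paired.

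Of 155 list medians under the alternatives, 24 moved by at least the spread between replicate arrays. Of 529 gene values under the alternatives, 518 kept their sign and 11 did not. ITGB1 was -0.14 with the mean over the probes of a gene and -0.057 without control siRNA replicate 2 (highest 0.22). ITGA1 ranged from -0.45 to 0.11 with 1 array left out, ITGA3 from -0.23 to 0.022, ITGB6 from -0.16 to 0.36, ITGB4 from -0.32 to 0.088 and ITGA11 from -0.34 to 0.17. Single values on the other side of 0 were 0.11 and 0.074 for ITGA1, 0.022 for ITGA3, -0.16 and -0.08 for ITGB6, 0.013 and 0.088 for ITGB4, and 0.04 and 0.17 for ITGA11. ITGA1 and ITGB6 were not measured with the stricter filter. Without background correction, values of dim probes were nearer 0: 0.27 for TGFB2, -0.23 for ITGB7, -0.41 for COL4A6, -0.33 for SHARPIN, -0.23 for LAMA4, -0.17 for NEDD9, -0.20 for SPMAP1 and 0.42 for FAP. Without control siRNA replicate 1, CCN2 was 0.22, COL4A5 -0.29 and LAMA4 -0.27. Without Slug siRNA replicate 1, ITGAE was -0.11 and COL4A1 -0.26, and without Slug siRNA replicate 2, NEDD9 was -0.25, LAMB3 0.18, PECAM1 -0.47 and ITGB5 -0.07. Signal over background limits ITGA1, ITGB6 and ITGB3, whose probes lie at or near background.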
